A study of Mus musculus with 18 samples.

Results

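The 6 genes described here, Abcb1a, Abcb1b, Abcg2, Abcc1, Abcc4 and Abcc5, encode ATP-binding cassette (ABC) efflux pumps of the blood-brain barrier. They were chosen by gene symbol from the 21638 genes of the deposited table. All 6 were found, and all 6 passed the filter on low counts (10 or more counts in 3 or more libraries), as did 17094 genes in all. Messenger RNA was sequenced from endothelial cells of adult mouse cortex, sorted for CD31 and against CD41 and CD45, on day 7. The 6 groups held 3 libraries each. Wild-type sham mice and wild-type mice with middle cerebral artery occlusion (MCAO, a surgical model of ischaemic stroke) gave ipsilateral and contralateral libraries. Mice labelled Hdac2 ECKO (Hdac2lox/lox:Cdh5CreERT2) and Ezh2 ECKO (Ezh2lox/lox:Cdh5CreERT2), both after MCAO, gave ipsilateral libraries only. ECKO denotes a deletion in endothelial cells, driven by a tamoxifen-inducible Cre under the Cdh5 promoter. Every group, wild-type included, is labelled as treated with tamoxifen at 75 mg per kg. The series text describes 5 doses, from day 0 to day 4. Strain and exact age are not given in the labels, and a deleted group with sham surgery is not among the samples used here, so a deletion can be compared only within MCAO.

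ABC pumps use ATP to move substrates out of a cell against their gradient. In brain capillaries they sit mainly in the membrane facing the blood and return drugs and metabolites that enter the endothelial cell. Rodents carry a pair of genes for the drug pump P-glycoprotein, Abcb1a and Abcb1b, where humans carry a single gene. Abcg2 encodes the breast cancer resistance protein, a half-transporter that works as a dimer and shares many substrates with P-glycoprotein. Abcc1, Abcc4 and Abcc5 encode multidrug resistance-associated proteins, which export organic anions, among them glutathione conjugates in the case of Abcc1 and cyclic nucleotides in the case of Abcc4 and Abcc5.

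Abcb1a lies on chromosome 5 at 8660077 to 8748575 and Abcb1b at 8798147 to 8866315, both on the plus strand of GRCm38, with 49571 bases between them. In GENCODE M21 each has 28 exons in its longest coding transcript and a coding sequence of 3828 bases. Over 3819 aligned coding positions 88.1% were identical, and the longest identical run was 338 bases. The pair is shown here because reads from alike stretches can be assigned to either gene. The first 2 lines below give the 90 bases of 1 exon in which the pair differed most, with the 29 mismatches in capitals. They come from exon 16 of each gene, at chr5:8714894-8714983 for Abcb1a and chr5:8827333-8827422 for Abcb1b.
Abcb1a: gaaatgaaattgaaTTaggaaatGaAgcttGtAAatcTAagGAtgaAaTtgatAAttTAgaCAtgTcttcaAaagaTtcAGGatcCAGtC
Abcb1b: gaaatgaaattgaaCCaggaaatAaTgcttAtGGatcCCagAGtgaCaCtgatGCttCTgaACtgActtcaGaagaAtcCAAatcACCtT
By contrast, the next 90 bases, from exon 12, had 0 mismatches between Abcb1a (chr5:8702153-8702242) and Abcb1b (chr5:8824473-8824562).
Both genes: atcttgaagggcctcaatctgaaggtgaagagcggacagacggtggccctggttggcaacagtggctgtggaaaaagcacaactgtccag

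Of all stretches of 75 coding bases, 16.6% in Abcb1a and 14.2% in Abcb1b also occurred in a transcript of another gene, which were each other, Abcb4 and the predicted gene Gm42686. Since the handling of reads that match more than 1 gene is not given in the sources used here, the split of counts between Abcb1a and Abcb1b is uncertain for those stretches. No such stretch was found for Abcg2 (chromosome 6, 58584523 to 58695676, plus strand), Abcc1 (chromosome 16, 14361558 to 14475737, plus strand), Abcc4 (chromosome 14, 118482692 to 118706219, minus strand) or Abcc5 (chromosome 16, 20331303 to 20426394, minus strand). That is 0 stretches in each of these 4 genes.

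Total counts ran from 25791401 to 57576255 per library. All 10 endothelial markers were counted in every library, with a summed level of 7278 to 25796 CPM (counts per 1000000 counts of the library, scaled by TMM factors). The sum ran from 15903 to 25796 CPM in MCAO ipsilateral and from 7278 to 11282 in Ezh2 ECKO. Marker sums of pericytes and smooth muscle reached 227 CPM, astrocytes 91.2, oligodendrocytes 169, microglia 22.9, fibroblasts 15.5, neurons 8.60 and choroid plexus 451. Blood cell markers, globins among them, summed to 79.0 to 701 CPM in Ezh2 ECKO, 49303 to 297932 in Hdac2 ECKO and 38288 to 65466 in MCAO ipsilateral. A background of 1464 olfactory and vomeronasal receptor genes summed to 152 to 2077 CPM and was highest in Ezh2 ECKO replicate 2 (2077 CPM) and MCAO contralateral replicate 1 (1883 CPM). For this receptor background alone, CPM was taken against the unscaled library total, without TMM factors. Neither targeted gene was clearly lower in its own libraries. Hdac2 ranged over 57.6 to 87.9 CPM with the label Hdac2 ECKO and 68.2 to 96.1 in MCAO ipsilateral, without passing the edgeR test (adjusted p 0.925). Ezh2 was higher in its own libraries, at 8.41 to 19.7 CPM with the label Ezh2 ECKO and 4.45 to 7.85 in MCAO ipsilateral. The log2 difference was 1.05 ± 0.86 (SE) and was not called (edgeR adjusted p 0.485). A count over a whole gene need not show the loss of single exons, so Hdac2 ECKO and Ezh2 ECKO denote here what the libraries are labelled. The labels do not say that the 3 libraries of a group came from separate mice, so p-values measure the spread between these libraries, which may be technical. Nor do they say whether same-numbered ipsilateral and contralateral libraries share a mouse. The sides were tested as independent libraries. In bulk samples, fewer cells of a type and less RNA per cell cannot be told apart.

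Abcg2 and Abcb1a were the most abundant ABC transcripts of these endothelial cells. Between genes, levels were compared as CPM per kilobase of the deposited feature length. On that scale Abcg2 had a median of 241 (range 173 to 403) over the 18 libraries and Abcb1a 159 (131 to 211). Abcc4 followed at 33.0 (11.5 to 40.5). The other 3 pumps were far lower, Abcb1b at 1.82 (0.554 to 3.04), Abcc5 at 1.28 (0.543 to 3.00) and Abcc1 at 0.288 (0.0778 to 1.69).

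Abcg2 was above Abcb1a in 17 of 18 libraries, with a median ratio of 1.52 per kilobase. With the length of the longest coding transcript in place of the feature length, it was above in 18 of 18, with a median ratio of 1.97. Abcb1a was above Abcc4 in 18 of 18 libraries (median ratio 4.80), and Abcc4 was above both Abcb1b and Abcc5 in 18 of 18. The 3 lowest pumps had no fixed order, since Abcb1b was above Abcc5 in 12 libraries and below it in 6. The complete order Abcg2, Abcb1a, Abcc4, Abcb1b, Abcc5, Abcc1 held in 10 of 18 libraries.

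**Figure D1:**
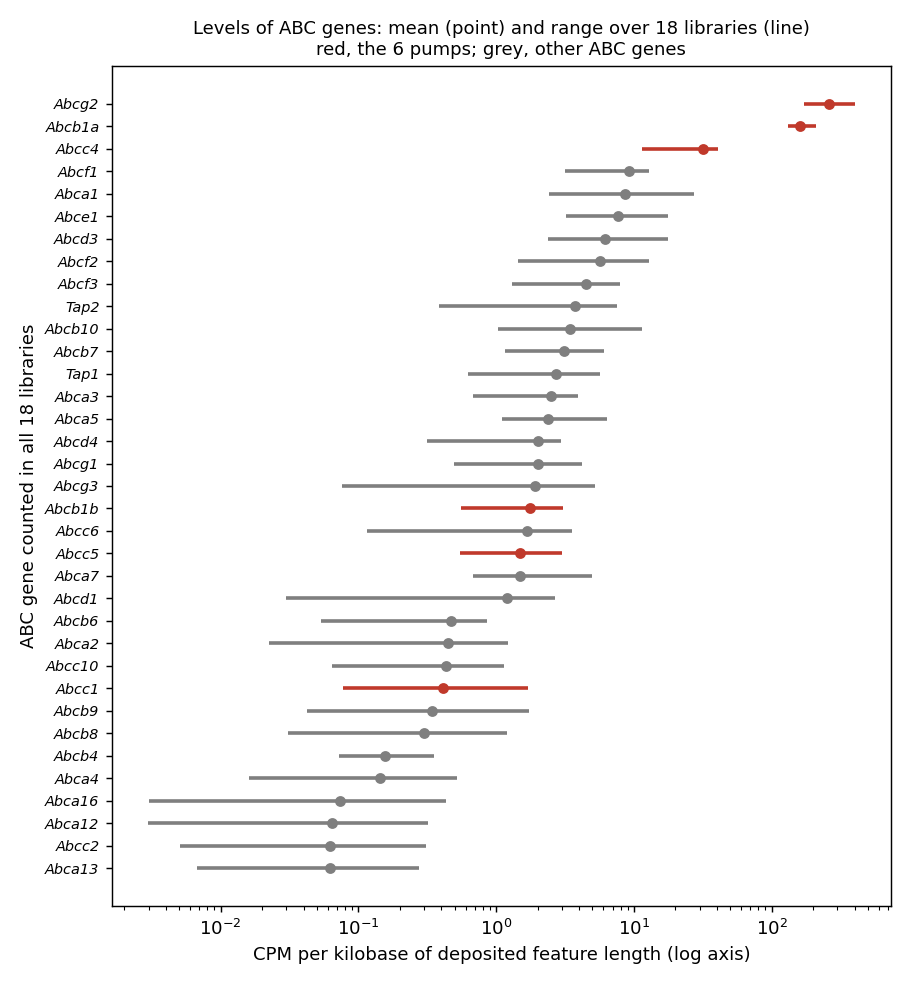
Level of each ABC gene counted in all 18 libraries, in CPM per kilobase of the deposited feature length on a log axis, with the mean as a point and the range over libraries as a line. The 6 pumps are in red and the other ABC genes in grey. Abcg2, Abcb1a and Abcc4 stand at the top, and Abcb1b, Abcc5 and Abcc1 at ranks 19, 21 and 27 of 53.

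Among the 53 ABC family genes in the table, Abcg2, Abcb1a and Abcc4 held ranks 1, 2 and 3 per kilobase. Together, Abcg2 and Abcb1a made up 75.0% to 84.3% of the summed per-kilobase level of the family in a library. The next gene was Abcf1, which lacks membrane-spanning domains, at a mean of 9.14 CPM per kilobase, and then Abca1, a cholesterol exporter, at 8.54. Abcb4, the phospholipid flippase next of kin to the P-glycoprotein pair, was at 0.157 CPM per kilobase and rank 32.

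In every group the P-glycoprotein pair was nearly all Abcb1a. Per kilobase Abcb1a was 97.7 times Abcb1b at the median, between 61.1 and 260 times in single libraries, and 57.7 times at the median by the longest coding transcript. As a share of the counts of both genes, Abcb1b made up 0.558% to 2.33% per library, with a median of 1.47%. The Wilson 95% interval was 0.473% to 0.657% for the lowest library, MCAO contralateral replicate 1, and 2.17% to 2.50% for the highest, Hdac2 ECKO replicate 1. These intervals cover counting error only, and they are too narrow where both mates of a read pair were counted. The share is a share of assigned counts, so it carries the uncertainty of the alike stretches.

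None of the 6 pumps was called in any comparison. With edgeR's quasi-likelihood test and Benjamini-Hochberg adjustment over 17094 genes, 0 of 48 results (6 genes in 8 comparisons) passed an adjusted p of 0.05, and the smallest adjusted p was 0.396. At an unadjusted p under 0.05 there were 2 results, both for Abcc4, in comparisons that share the libraries labelled Hdac2 ECKO. The share of all genes at an unadjusted p under 0.05 was 7.08% in MCAO against sham ipsilateral, 4.41% contralateral, 3.08% between the sides in MCAO, 1.85% between the sides in sham and 3.38% in the test of whether the side difference differed between MCAO and sham. It was 9.85% for Hdac2 ECKO, 19.2% for Ezh2 ECKO and 11.2% between these. DESeq2 and voom with sample weights also called 0 of the 48, though they called more of the 17094 genes in several comparisons. DESeq2 called 71 genes in MCAO against sham ipsilateral and 26 contralateral. It called 239 for Hdac2 ECKO, 1617 for Ezh2 ECKO and 647 between these. Between the sides it called 6 in MCAO and 6 in sham, and 6 in the test of the side difference. Voom called 1273, 7, 32, 377, 4, 0, 1 and 1 in the same order. By the adjusted p in edgeR, the share of all genes called was 0% in MCAO against sham on the ipsilateral side, on the contralateral side, between sides in MCAO, between sides in sham, and in the test of the side difference between MCAO and sham. It was 0.0117% for Hdac2 ECKO and 1.46% for Ezh2 ECKO, each against MCAO ipsilateral, and 0.123% for Hdac2 ECKO against Ezh2 ECKO. The ranges of the groups did not overlap in 2 of 42 results over pairs of groups, both for Abcb1b. It was higher in MCAO ipsilateral than in sham ipsilateral, as were 13.3% of all genes without overlap, and higher than in MCAO contralateral, as were 3.49%.

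**Figure D2:**
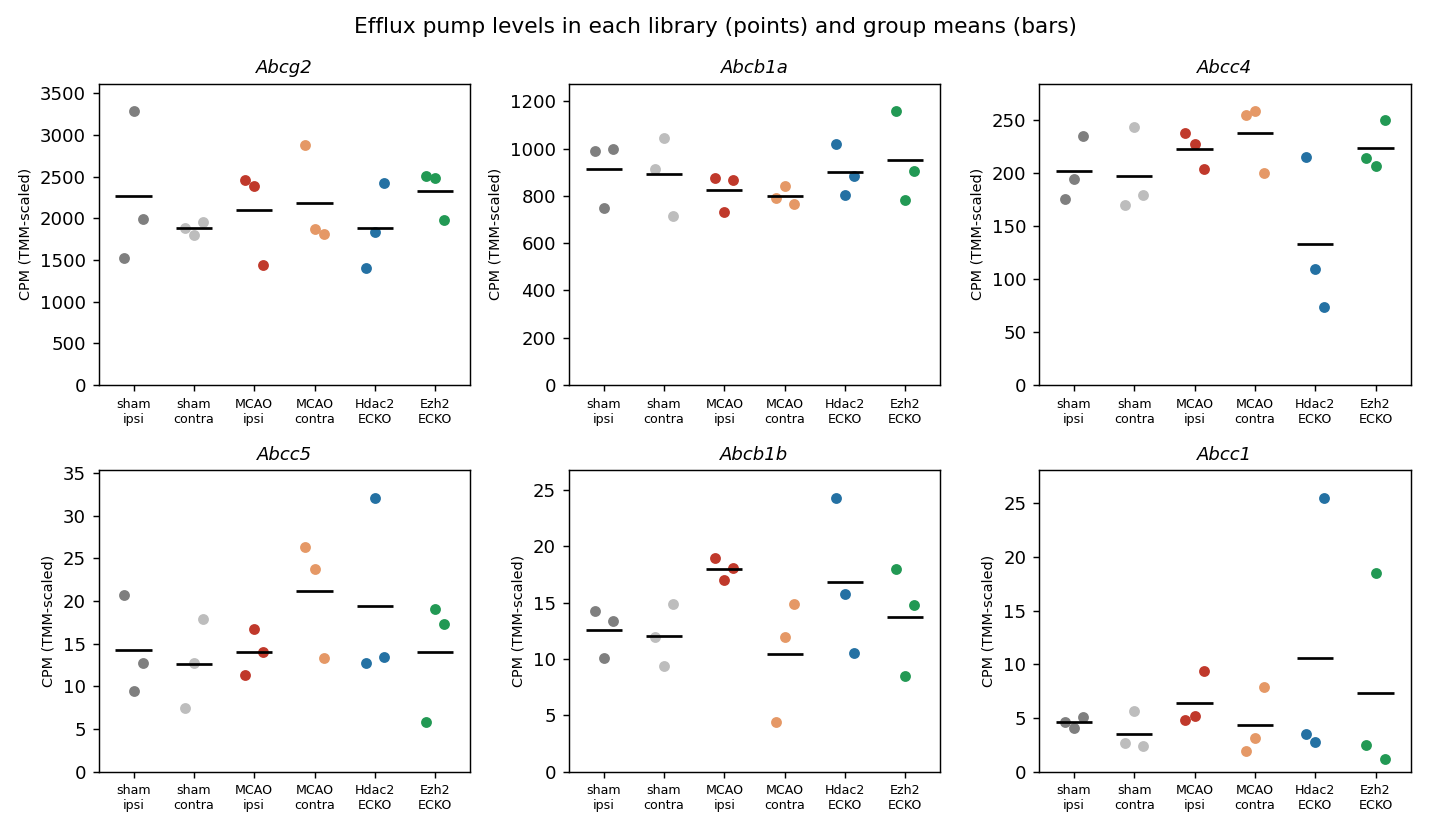
Level of each pump in TMM-scaled CPM (vertical axes start at 0 and differ between panels) in the 6 groups, with 1 point per library in the order of the replicate numbers and a bar at the group mean. The points of most groups overlap, except that Abcb1b in MCAO ipsilateral (17.1 to 19.0 CPM) lies above both sham groups and MCAO contralateral. The libraries labelled Hdac2 ECKO spread widely for Abcc4 and Abcc1.

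Abcb1a, the main P-glycoprotein gene, was at 989, 750 and 999 CPM in sham ipsilateral, 912, 1045 and 716 in sham contralateral, 876, 733 and 866 in MCAO ipsilateral and 789, 842 and 764 in MCAO contralateral. Hdac2 ECKO libraries had 1020, 802 and 883 CPM, and Ezh2 ECKO libraries 1159, 784 and 906. The 6 groups overlapped, and the highest and lowest of the 18 libraries differed 1.62-fold. By mean ± SD (n = 3), the order was Ezh2 ECKO (950 ± 191 CPM), sham ipsilateral (913 ± 141), Hdac2 ECKO (902 ± 110), sham contralateral (891 ± 166), MCAO ipsilateral (825 ± 79.9) and MCAO contralateral (799 ± 39.8), and each neighbour's range overlapped the next.

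On the log2 scale Abcb1a differed by -0.15 ± 0.27 (SE) between MCAO and sham ipsilateral, with a 95% interval of -0.71 to 0.42 and an edgeR adjusted p of 0.905. The change with the label Hdac2 ECKO was 0.13 (interval -0.44 to 0.69, edgeR adjusted p 0.898) and with Ezh2 ECKO 0.20 (-0.36 to 0.77, edgeR adjusted p 0.677). In all 7 pairs of groups the interval for Abcb1a stayed within a 1.70-fold difference in either direction. Another scaling, by RLE factors, gave a difference between the sides in MCAO of the opposite sign (-0.13 in place of 0.05), neither of which passed the test. Between the sides in sham, all 6 pumps differed by 0.03 to 0.38 on the log2 scale, with edgeR adjusted p-values of 1.00.

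Abcb1a was also steady against other genes. Its coefficient of variation over the 18 libraries was 14.0%, and 8 of 7814 genes that averaged 10 CPM or more had a lower one. The median over those genes was 40.0%. With RLE scaling 7 of 7810 genes were lower (14.0% became 13.8%), and with library totals alone 284 of 7846 were lower, at 21.8%. Among genes that averaged 100 CPM or more, 8 of 1807 were lower with TMM factors, 7 of 1801 with RLE factors and 223 of 1805 (12.4%) with library totals. The rank thus depended on the scaling.

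**Figure D3:**
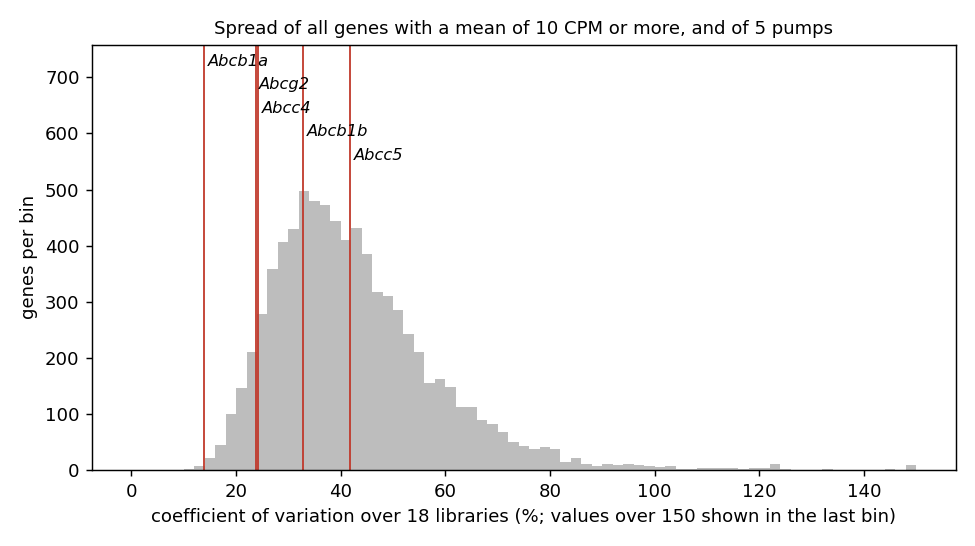
Number of genes (vertical axis) by coefficient of variation over the 18 libraries in percent (horizontal axis, with all higher values in the last bin), for genes that averaged 10 CPM or more. Red lines mark 5 pumps, from Abcb1a at 14.0% to Abcc5 at 41.9%. Abcc1, at 101%, has a mean below 10 CPM and is not drawn.

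Abcb1b, the minor P-glycoprotein gene, was at 14.2, 10.1 and 13.4 CPM in sham ipsilateral, 11.9, 9.35 and 14.9 in sham contralateral, 19.0, 17.1 and 18.1 in MCAO ipsilateral and 4.43, 12.0 and 14.9 in MCAO contralateral. Hdac2 ECKO libraries had 24.3, 15.7 and 10.6 CPM, and Ezh2 ECKO libraries 18.0, 8.51 and 14.8. The 3 MCAO ipsilateral libraries lay above all 3 sham ipsilateral and all 3 MCAO contralateral libraries. Neither difference passed the test. The log2 difference was 0.52 ± 0.51 (SE) from sham ipsilateral (interval -0.54 to 1.59, edgeR adjusted p 0.826) and 0.79 ± 0.51 from MCAO contralateral (interval -0.28 to 1.86, edgeR adjusted p 1). The side difference in MCAO minus that in sham was 0.73 ± 0.72 (edgeR adjusted p 0.941), and 0.36 without MCAO contralateral replicate 1 or 1.08 without replicate 3 of that group.

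Means ± SD (n = 3) for Abcb1b ran from 18.0 ± 0.954 CPM in MCAO ipsilateral through 16.9 ± 6.95 in Hdac2 ECKO, 13.8 ± 4.81 in Ezh2 ECKO, 12.6 ± 2.19 in sham ipsilateral and 12.1 ± 2.77 in sham contralateral to 10.4 ± 5.42 in MCAO contralateral. The ranges of neighbours overlapped at every step. The receptor background moved against Abcb1b: the 4 libraries with the highest background were among the 5 lowest for it. With the background as a covariate the log2 difference between MCAO and sham ipsilateral was 0.09 and that between the sides in MCAO 0.65. Without the 2 libraries of highest background they were 0.50 and 0.43, and without MCAO contralateral replicate 1 alone the side difference was 0.40.

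Because library scaling cancels in a share, the Abcb1b share of the pair gives a second view of the same counts. It was 1.42%, 1.33% and 1.32% in sham ipsilateral, 1.29%, 0.887% and 2.04% in sham contralateral, 2.12%, 2.27% and 2.05% in MCAO ipsilateral and 0.558%, 1.40% and 1.92% in MCAO contralateral. It was 2.33%, 1.92% and 1.18% in the libraries labelled Hdac2 ECKO and 1.53%, 1.07% and 1.61% in those labelled Ezh2 ECKO. MCAO ipsilateral was above sham ipsilateral by 0.791 percentage points and above MCAO contralateral by 0.854. The share in Ezh2 ECKO minus that in MCAO ipsilateral was -0.744 percentage points. The groups did not overlap in these 3 comparisons. Without MCAO contralateral replicate 1, which had a receptor background of 1883 CPM, the side difference was 0.487, and without replicate 3 of that group it was 1.17. A two-sided exact permutation test gave p = 0.1 for each of these, the smallest p that 3 against 3 libraries allow, and 0.233 after adjustment over 7 comparisons.

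**Figure D4:**
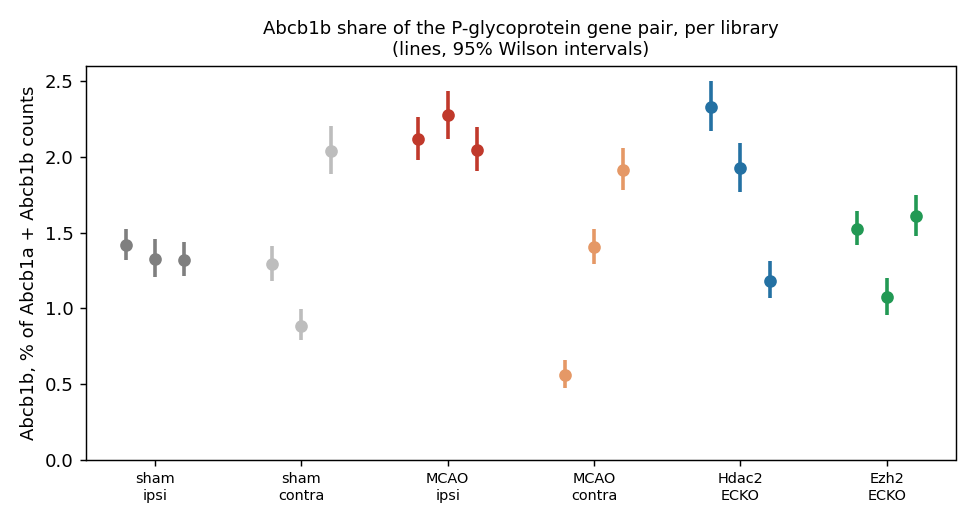
Abcb1b counts as a percentage of Abcb1a plus Abcb1b counts (vertical axis from 0) in each library of the 6 groups, with lines for Wilson 95% intervals. The 3 MCAO ipsilateral libraries lie between 2.05% and 2.27%, and the sham ipsilateral libraries between 1.32% and 1.42%.

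Abcg2 was at 1530, 3288 and 1999 CPM in sham ipsilateral, 1888, 1803 and 1953 in sham contralateral, 2456, 2392 and 1445 in MCAO ipsilateral and 2880, 1878 and 1812 in MCAO contralateral. Levels with the label Hdac2 ECKO were 1410, 1833 and 2420 CPM, and with Ezh2 ECKO 2507, 2482 and 1983. Single libraries stood out in several groups, above all sham ipsilateral replicate 2, while group means stayed between 1882 ± 75.3 CPM (SD, sham contralateral) and 2324 ± 295 (Ezh2 ECKO). The order between these was sham ipsilateral (2272 ± 911), MCAO contralateral (2190 ± 598), MCAO ipsilateral (2098 ± 566) and Hdac2 ECKO (1888 ± 507), with overlap between all neighbours.

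The log2 difference of Abcg2 between MCAO and sham ipsilateral was -0.12 ± 0.34 (SE), with an interval of -0.81 to 0.58 and an edgeR adjusted p of 0.942. Without sham ipsilateral replicate 2 it was 0.25. The difference with the label Hdac2 ECKO was -0.15 (interval -0.85 to 0.54) and with Ezh2 ECKO 0.15 (-0.55 to 0.84). In the 7 pairs of groups its intervals reached at most a 2.00-fold difference. The coefficient of variation was 23.7%, with 6.32% of genes lower, and it rested on the scaling, being 31.2% with RLE factors and 37.5% with library totals. Among genes that averaged 100 CPM or more, 14.1% were lower with TMM factors, 36.6% with RLE factors and 63.1% with library totals.

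Abcc4, the most abundant of the 3 multidrug resistance-associated transcripts, was at 176, 195 and 236 CPM in sham ipsilateral, 170, 244 and 179 in sham contralateral, 238, 228 and 204 in MCAO ipsilateral and 255, 259 and 201 in MCAO contralateral. Ezh2 ECKO libraries had 214, 207 and 251 CPM, and Hdac2 ECKO libraries 215, 109 and 73.4. The first of the Hdac2 ECKO libraries lay within the range of MCAO ipsilateral, and the other two were the lowest of all 18 libraries.

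The group labelled Hdac2 ECKO averaged 133 ± 73.8 CPM (SD, n = 3) against 223 ± 17.6 in MCAO ipsilateral and 224 ± 23.4 in Ezh2 ECKO. The log2 difference was -0.75 ± 0.33 (SE) from MCAO ipsilateral, with an interval of -1.44 to -0.06, an unadjusted p of 0.0338 and an adjusted p of 0.479 in edgeR. From Ezh2 ECKO it was -0.75 ± 0.33, with an unadjusted p of 0.0328 and an adjusted p of 0.396 in edgeR. Neither was called, and 5.24% and 4.25% of all genes were lower at an unadjusted p under 0.05 in these comparisons. Leaving out single libraries moved the first difference between -1.33 (without Hdac2 ECKO replicate 1, edgeR adjusted p 0.353) and -0.51 (without Hdac2 ECKO replicate 3). Blood markers in the 3 libraries summed to 297932, 251398 and 49303 CPM in replicate order, and the pericyte and smooth muscle markers to 93.2, 20.5 and 27.8. The endothelial markers summed to 15488, 14671 and 10716 CPM, and the receptor background was 198, 324 and 637 CPM. With that background as a covariate the difference of Abcc4 from MCAO ipsilateral was -0.73 on the log2 scale (edgeR adjusted p 0.324). The part of the markers in it was not tested.

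For the wild-type groups Abcc4 averaged 238 ± 32.5 CPM in MCAO contralateral, 202 ± 30.6 in sham ipsilateral and 198 ± 40.3 in sham contralateral, so that MCAO contralateral led the order, and neighbours overlapped throughout. MCAO and sham ipsilateral differed by 0.15 ± 0.33 on the log2 scale (interval -0.54 to 0.83, edgeR adjusted p 0.925), and the contralateral groups by 0.27 ± 0.33 (-0.41 to 0.95, edgeR adjusted p 0.929). Ezh2 ECKO and MCAO ipsilateral differed by 0.00 (interval -0.68 to 0.69). In the 5 pairs of groups without Hdac2 ECKO the interval stayed within a 2-fold difference.

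Abcc5 was at 20.7, 9.41 and 12.7 CPM in sham ipsilateral, 7.41, 12.7 and 17.9 in sham contralateral, 11.3, 16.7 and 14.0 in MCAO ipsilateral and 26.3, 23.7 and 13.3 in MCAO contralateral. Levels with the label Hdac2 ECKO were 12.8, 32.1 and 13.4 CPM, and with Ezh2 ECKO 5.80, 19.1 and 17.4. All 6 groups overlapped, with means from 21.1 ± 6.87 CPM (MCAO contralateral) through 19.4 ± 11.0 (Hdac2 ECKO), 14.3 ± 5.82 (sham ipsilateral), 14.1 ± 7.22 (Ezh2 ECKO) and 14.0 ± 2.67 (MCAO ipsilateral) to 12.7 ± 5.26 (sham contralateral). The difference of MCAO from sham contralateral was 0.74 ± 0.55 (SE, log2 scale), with an interval of -0.41 to 1.88 and an edgeR adjusted p of 0.920. It was 0.45 without sham contralateral replicate 1 and 1.06 without replicate 3 of that group. On the ipsilateral side the same difference was -0.03 ± 0.55 (interval -1.17 to 1.11, edgeR adjusted p 0.991). The 2 sides were not shown to differ in this respect, since the test of that difference gave -0.77 ± 0.78 (edgeR adjusted p 0.941), with -0.36 without sham ipsilateral replicate 1 and -1.08 without sham contralateral replicate 3.

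Abcc1 was the lowest pump, at 4.62, 4.08 and 5.14 CPM in sham ipsilateral, 2.63, 5.68 and 2.35 in sham contralateral, 4.79, 5.16 and 9.38 in MCAO ipsilateral and 1.95, 3.18 and 7.84 in MCAO contralateral. Hdac2 ECKO libraries had 3.54, 2.80 and 25.5 CPM, and Ezh2 ECKO libraries 2.45, 18.5 and 1.17. The values 25.5 and 18.5 stood apart from the other 16 libraries, which had a median of 3.81 and a maximum of 9.38. They come from 867 and 650 counts and are not at the counting floor, which is 3 counts or 0.0619 to 0.101 CPM.

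The means of Abcc1 followed these 2 libraries, with 10.6 ± 12.9 CPM (SD, n = 3) in Hdac2 ECKO and 7.37 ± 9.65 in Ezh2 ECKO. They were 6.44 ± 2.55 in MCAO ipsilateral, 4.61 ± 0.532 in sham ipsilateral, 4.32 ± 3.11 in MCAO contralateral and 3.56 ± 1.85 in sham contralateral. The log2 difference of Hdac2 ECKO from MCAO ipsilateral was 0.72 ± 0.93 (SE, edgeR adjusted p 0.820), and -1.06 without Hdac2 ECKO replicate 3. That of Ezh2 ECKO was 0.19 ± 0.93 (edgeR adjusted p 0.916), and -1.85 without Ezh2 ECKO replicate 2. Each direction thus rested on 1 library. The receptor background was 637 CPM in the first of these libraries and 2077 in the second. With that background as a covariate the difference was 0.10 for Hdac2 ECKO and -1.19 for Ezh2 ECKO, neither of them called. Over all pairs of groups the interval for Abcc1 reached a 6.32-fold difference.

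**Figure D5:**
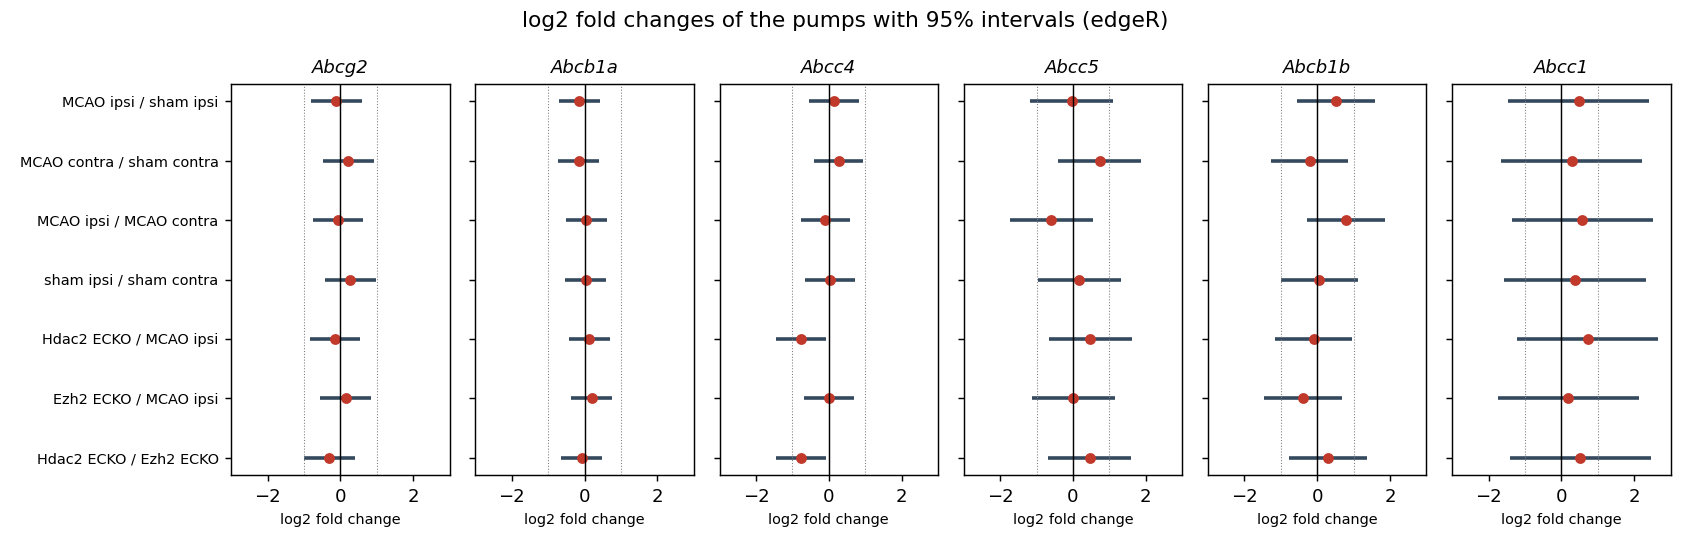
Log2 fold change (points) with 95% interval (lines) of each pump in 7 pairs of groups, from edgeR. Dotted lines mark a 2-fold difference. Intervals are narrow for Abcg2 and Abcb1a and wide for Abcc5, Abcb1b and Abcc1, and those of Abcc4 for Hdac2 ECKO lie below 0 before adjustment for the number of genes tested.

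The pumps did not vary as a block. Over the 18 libraries, Spearman's rho between members lay between -0.43 (Abcb1a with Abcc5) and 0.15 (Abcb1a with Abcc4). The genes most like Abcb1a were Flt1, the vascular endothelial growth factor receptor (rho 0.86), the adhesion gene Ctnna1 (0.86) and the endothelial adhesion receptor Adgrf5 (0.83). Those most like Abcg2 were Rab18 (0.87), Dmtf1 (0.81) and Mfsd14a (0.79), and those most like Abcc4 were Plekha3 (0.85), Hsp90b1 (0.83) and Atp2a2 (0.82). For Abcb1b they were Rack1 (0.82), Polr2h (0.80) and Ralb (0.80). For Abcc1 they were Clec16a (0.81), Flywch1 (0.80) and Luc7l (0.77), and for Abcc5 Fads1 (0.69), Ppfia1 (0.64) and Med12 (0.64). These were the 3 highest among 7813 genes (7814 for Abcc1) that averaged 10 CPM or more, so high values are built into the choice. All points share a library's scaling and background.

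Of the other ABC family genes, 45 of 47 were tested. By edgeR 0 of them were called in any of the 8 comparisons, beside 0% to 1.46% of all genes. Their median log2 difference lay away from that of all genes in several comparisons. In Ezh2 ECKO against MCAO ipsilateral it was 0.89 (31 of the 45 higher, 14 lower) beside 0.17 over all genes, and in Hdac2 ECKO against MCAO ipsilateral 0.62 (31 higher, 14 lower) beside 0.11. In MCAO against sham ipsilateral it was -0.63 (13 higher, 32 lower) beside -0.09, and between the sides in MCAO -0.90 (19 higher, 26 lower) beside -0.05. For Hdac2 against Ezh2 ECKO it was -0.60 (15 higher, 30 lower) beside -0.15. For the side difference in MCAO minus that in sham it was -0.99 (15 higher, 30 lower) beside -0.08. Between the contralateral groups it was 0.53 (30 higher, 15 lower) beside 0.17, and between the sides in sham 0.19 (31 higher, 14 lower) beside 0.07. At an unadjusted p under 0.05 in edgeR, 9 of the 45 were higher and 4 lower in Ezh2 ECKO against MCAO ipsilateral, beside 19.2% of all genes. In Hdac2 ECKO 2 were lower (9.85% of all genes), and between the sides in MCAO 6 were lower (3.08%). For Hdac2 against Ezh2 ECKO 4 were higher and 2 lower (11.2%). In MCAO against sham ipsilateral there were 0 (7.08%). The family holds many low genes, since 35 of 53 had counts in every library. The receptor background was 268, 2077 and 599 CPM in Ezh2 ECKO, 198, 324 and 637 in Hdac2 ECKO and 241, 154 and 296 in MCAO ipsilateral. This background was 284, 714 and 462 CPM in sham ipsilateral, 269, 325 and 207 in sham contralateral and 1883, 173 and 152 in MCAO contralateral. Its part in these medians was not tested. Over the 8 comparisons the smallest adjusted p was that of Abcg3 in Hdac2 ECKO against Ezh2 ECKO (edgeR adjusted p 0.0857). In Ezh2 ECKO against MCAO ipsilateral it was that of Abcb6, a porphyrin transporter. Both genes were picked for these p-values after the values were seen. Abcb6 was at 3.32 ± 1.14 CPM in MCAO ipsilateral and 0.553 ± 0.251 in Ezh2 ECKO (log2 difference -2.58 ± 0.81 SE, edgeR adjusted p 0.0926). In Ezh2 ECKO against MCAO ipsilateral the median over the 6 pumps was 0.08.

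Carriers of the SLC families work beside the pumps, and several take up organic anions. Of 19 listed, 15 were tested and 0 were called in any comparison by edgeR, beside 0% to 1.46% of all genes. At such shares, 0 of 15 does not set the carriers apart. Group means ran from 2590 to 3933 CPM for Slco1a4, an organic anion and drug carrier, and from 1697 to 1972 CPM for Slco1c1, a thyroxine carrier. They ran from 172 to 277 CPM for Slc22a8, the organic anion transporter OAT3.

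Nuclear receptors that sense drugs are known to drive transcription of the pumps. Nr1i2, the pregnane X receptor, was at group means of 0 to 0.577 CPM, and all 3 sham ipsilateral libraries were at 0 counts, which allows up to 0.0619, 0.0715 and 0.0803 CPM in these libraries. Nr1i3, the constitutive androstane receptor, was at 10.6 to 22.8 CPM, the aryl hydrocarbon receptor Ahr at 8.73 to 16.7 CPM and the oxidative stress factor Nfe2l2 at 81.9 to 119 CPM. Together with drug-metabolising enzymes they formed a list of 28 genes, of which 26 were tested. In Ezh2 ECKO against MCAO ipsilateral 3 of them were called, all lower, beside 1.23% of all genes lower. In the other 7 comparisons 0 were called, beside 0% to 0.123% of all genes.

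These 3 were conjugating enzymes, which make the anionic metabolites that such pumps export. Gstm1, a glutathione transferase, was at 787, 969 and 720 CPM in MCAO ipsilateral and 288, 208 and 198 in Ezh2 ECKO. Gstp1, another glutathione transferase, was at 618, 792 and 602 CPM in MCAO ipsilateral and 251, 154 and 131 in Ezh2 ECKO. The sulfotransferase Sult1a1 was at 265, 318 and 118 CPM in MCAO ipsilateral and 50.0, 100 and 17.6 in Ezh2 ECKO. The groups did not overlap for these 3 genes, and 15.3% of all genes were lower without overlap. The log2 difference was -1.84 ± 0.45 (SE) for Gstm1, -1.91 ± 0.47 for Gstp1 and -2.06 ± 0.50 for Sult1a1, with edgeR adjusted p-values of 0.0449, 0.0460 and 0.0434.

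MCAO contralateral had a mean of 879 ± 447 CPM (SD, n = 3) for Gstm1, 685 ± 387 for Gstp1 and 200.2 ± 89.8 for Sult1a1, beside 825 ± 129, 670.5 ± 105 and 234 ± 104 in MCAO ipsilateral. In sham ipsilateral Gstm1 was at 475, 461 and 338 CPM, Gstp1 at 380, 187 and 323 and Sult1a1 at 61.3, 72.4 and 73.7. For Sult1a1 the difference of MCAO from sham ipsilateral was 1.76 ± 0.49 on the log2 scale, with an edgeR adjusted p of 0.509. In the libraries labelled Hdac2 ECKO, Sult1a1 was at 51.2, 66.8 and 47.2 CPM, and its difference from Ezh2 ECKO was -0.02 ± 0.48 (edgeR adjusted p 0.990). Gstp1 was at 559, 711 and 414 CPM there (log2 difference from Ezh2 ECKO 1.65 ± 0.47, edgeR adjusted p 0.164). Gstm1 was at 359, 373 and 363 CPM there, beside 787, 969 and 720 in MCAO ipsilateral. Its log2 difference from Ezh2 ECKO was 0.66 ± 0.44 (edgeR adjusted p 0.629).

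Of 12 genes that anchor or traffic such pumps, all 12 were tested, with 0 called in 7 of the 8 comparisons. In Ezh2 ECKO against MCAO ipsilateral 1 was called, lower, beside 1.23% of all genes called lower. It was Slc9a3r2, a PDZ scaffold of membrane transporters, at 383, 483 and 193 CPM in MCAO ipsilateral and 115, 73.6 and 99.4 in Ezh2 ECKO, a log2 difference of -1.88 ± 0.41 (SE, edgeR adjusted p 0.0324). Slc9a3r2 was at 168, 132 and 130 CPM in Hdac2 ECKO, where it was not called, and at 353, 140 and 216 in sham ipsilateral. Lower levels than in MCAO ipsilateral were thus not particular to Ezh2 ECKO. The 4 calls are fragile. Over fits that left out 1 library, the edgeR adjusted p ran from 0.0497 to 0.212 for Gstm1, from 0.0514 to 0.214 for Gstp1, from 0.0240 to 0.229 for Sult1a1 and from 0.0158 to 0.188 for Slc9a3r2. The call was kept in 1, 0, 2 and 2 of 6 such fits. Over 8 other settings it was kept in 6, 6, 4 and 6, with adjusted p-values of up to 0.169 for Gstm1 and Gstp1, 0.155 for Sult1a1 and 0.112 for Slc9a3r2. Of the stretches of 75 coding bases, 65.1% in Gstp1, 23.4% in Gstm1 and 6.46% in Sult1a1 occur in other transcripts, among them Gstp2 and Gstm3, so these counts may be split between copies. The endothelial and blood marker sums were also lower in Ezh2 ECKO than in MCAO ipsilateral. In Hdac2 ECKO the endothelial sum was 10716 to 15488 CPM, beside 15903 to 25796 in MCAO ipsilateral. The blood sum there was 49303 to 297932 CPM, beside 38288 to 65466 in MCAO ipsilateral. The part of these sums was not tested. The endothelial markers were split, with 6 of 10 higher and 4 lower in Ezh2 ECKO than in MCAO ipsilateral. Among them 1 was called, Ly6c1, which was lower (edgeR adjusted p 0.0291), beside 1.23% of all genes called lower. The lower sum thus does not show that endothelial markers were lower as a set.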

How the data were processed

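RNA was measured in 18 libraries of sorted cortical endothelial cells, prepared with the SMART-Seq v4 PLUS kit and sequenced as read pairs, per the labels' protocols. The authors deposited 1 table of counts per gene. Its name calls it normalized, but the values are whole numbers with unequal totals (25791401 to 57576255), and 77.3% to 89.4% of counts from 1 to 20 are even, so they were treated as unscaled counts. The submitters' processing notes name FastQC, cutadapt, STAR, featureCounts, DESeq2 and mm10, with no roles. Deposited starts plus 1 equal GENCODE M21 starts for all 6 pumps. A total of 0 value columns were left without a sample.

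The design foresaw edgeR for unscaled counts and limma for scaled values, and edgeR applied. The filter kept genes with 10 or more counts in 3 or more libraries. One edgeR 4.0.16 quasi-likelihood fit (R 4.3.3, TMM factors) of 6 group means to all 18 libraries gave each comparison, with Benjamini-Hochberg adjustment over 17094 genes. The SE is the log2 difference divided by the square root of F. CPM is the count per 1000000 of the TMM-scaled library total, except for the receptor background, which was taken against the unscaled total. A pseudocount of 1 was used only for rank likeness. Alternatives were RLE factors, no filter, a replicate block, receptor background as a covariate, fits of the 2 groups compared, voom with sample weights (limma 3.58.1), DESeq2 1.42.0 and leaving out each library. The fits without the 2 libraries of highest background, and the test of the side difference in MCAO against sham, were added after the data were seen. The fit was also run on simulated data. The outcome is not reported here, so that run does not say how often a true change in a pump would be called.

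The members and lists were chosen with earlier results of these data known. The 6 pumps are named in every comparison. From each other list every called gene is named where up to 3 were called, otherwise the 3 with the smallest adjusted p. A few fixed transporters and receptors are named with their levels. Abcg3, Abcb6 and Abcf1 are named outside this rule, as is the marker Ly6c1. Blood cell markers are given as sums, though edgeR called 5 of 8 lower in Ezh2 ECKO than in MCAO ipsilateral, beside 1.23% of all genes.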

Additional observations from a re-analysis of the deposited data

How the results depend on the processing

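The 48 pump results were recomputed under other settings, which gave 386 values, and without each library in turn, which gave 324. Of these, 0 were called (smallest adjusted p 0.146, with DESeq2, and 0.143, without 1 library). With the counts of Abcb1a and Abcb1b summed, the differences of Abcb1a kept their sign and were not called. Abcb1b made up only 0.558% to 2.33% of that sum, so it could hardly differ from Abcb1a. It says nothing of Abcb1b. The sign of the differences was less fixed, with 35 and 48 reversals. These included differences of up to 0.72, that of Abcc1 in Hdac2 ECKO, and were not confined to small ones. The cause was not tested. With TMM factors the median of all genes in Ezh2 ECKO against MCAO ipsilateral was 0.17, and RLE factors moved it by 0.19 to 0.36. They moved it by 0.13 between the contralateral groups, -0.16 between the sides in MCAO, -0.11 for Hdac2 against Ezh2 ECKO and -0.19 for the side difference in MCAO minus that in sham, so differences below about this size depend on the scaling. Depth was ample for Abcg2, Abcb1a and Abcc4. The intervals rest on a spread that the fit estimated over all 18 libraries, not on the 2 groups compared alone.

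Reversed log2 differences by setting were as follows. For Abcb1a between the sides in MCAO they were -0.13 (RLE and DESeq2) and -0.10 (fit of the 2 groups), and for its side difference in MCAO minus sham -0.17 (RLE and DESeq2), -0.077 (covariate), -0.010 (without the 2 libraries of highest background) and -0.088 (voom). For Abcb1b they were 0.0072 (no filter) and 0.10 (covariate) in Hdac2 ECKO, 0.26 in Ezh2 ECKO and -0.16 in Hdac2 against Ezh2 ECKO (covariate), and 0.15 (without the 2 libraries) and 0.022 (voom) between the contralateral groups. For Abcg2 they were 0.094 (covariate) and 0.053 (voom) between the ipsilateral groups, -0.034 between the contralateral groups (without the 2 libraries), 0.014 (no filter) in Hdac2 ECKO and -0.12 (covariate) in Ezh2 ECKO. Between the sides in MCAO Abcg2 gave 0.0053 (no filter), 0.10 (covariate), 0.19 (without the 2 libraries) and 0.15 (voom), and for the side difference in MCAO minus sham 0.053 (voom). For Abcc1 they were -1.19 (covariate), -1.81 (without the 2 libraries) and -1.15 (voom) in Ezh2 ECKO, -0.43 (voom) in Hdac2 ECKO, and -0.16 (without the 2 libraries) and -0.28 (voom) for the side difference in MCAO minus sham. For Abcc5 they were 0.089 (covariate) between the ipsilateral groups, and -0.035 (replicate block), -0.27 (covariate), -0.24 (without the 2 libraries) and -0.11 (voom) in Ezh2 ECKO.

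Without 1 library, the log2 differences that changed sign had these ranges. In MCAO against sham ipsilateral they were -0.26 to 0.37 for Abcc5 and -0.31 to 0.25 for Abcg2. In MCAO against sham contralateral they were -0.55 to 0.18 for Abcb1b, -0.47 to 0.79 for Abcc1 and -0.0064 to 0.34 for Abcg2. Between the sides in MCAO the range was -0.19 to 0.18 for Abcg2. Between the sides in sham they were -0.13 to 0.17 for Abcb1a, -0.094 to 0.21 for Abcb1b, -0.094 to 0.21 for Abcc4, -0.22 to 0.48 for Abcc5 and -0.093 to 0.48 for Abcg2. In Hdac2 ECKO they were -0.014 to 0.17 for Abcb1a, -0.49 to 0.11 for Abcb1b, -1.06 to 1.11 for Abcc1 and -0.15 to 0.67 for Abcc5. In Ezh2 ECKO they were -1.85 to 0.69 for Abcc1, -0.11 to 0.054 for Abcc4, -0.28 to 0.38 for Abcc5 and -0.10 to 0.28 for Abcg2. In Hdac2 against Ezh2 ECKO they were -0.23 to 0.092 for Abcb1a, -0.11 to 0.53 for Abcb1b, -1.25 to 2.54 for Abcc1 and -0.17 to 0.73 for Abcc5. For the side difference in MCAO minus sham they were -0.12 to 0.16 for Abcb1a, -0.31 to 0.95 for Abcc1, -0.30 to 0.0061 for Abcc4 and -0.52 to 0.020 for Abcg2. The Abcb1b share difference ran from -0.426 to 0.254 percentage points in MCAO against sham contralateral and from -0.31 to 0.266 between the sides in sham.

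Counts of called genes moved more. For Hdac2 ECKO against MCAO ipsilateral, where 2 were called, RLE factors gave 4, the covariate 10, the fit of the 2 groups 0, voom 32, DESeq2 239 and the fit without the 2 libraries 62, and single libraries left out gave 0 to 18. For Ezh2 ECKO against MCAO ipsilateral, where 250 were called, the covariate gave 13, the fit of the 2 groups 485, voom 377, DESeq2 1617 and the fit without the 2 libraries 1000, and single libraries left out gave 5 to 298. For Hdac2 against Ezh2 ECKO, where 21 were called, no filter gave 38, the covariate 54, voom 4, DESeq2 647 and the fit without the 2 libraries 115, and single libraries left out gave 9 to 73. Between the ipsilateral groups, where 0 were called, no filter gave 2, the covariate 1, the fit of the 2 groups 74, voom 1273, DESeq2 71 and the fit without the 2 libraries 13. Between the contralateral groups voom gave 7, DESeq2 26, the fit without the 2 libraries 1 and single libraries left out 0 to 1. Between sides, DESeq2 gave 6 in MCAO and 6 in sham, and voom 1 in sham. For the side difference in MCAO minus sham voom gave 1 and DESeq2 6.

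Replicate numbers were not used as pairs. Same-number correlations ran from -0.26 to 0.33, and all 3 were above 0.1 in 0 of 7 comparisons, which does not show that the libraries were unpaired. Between sides they were 0.12, 0.30 and -0.020 in MCAO and 0.21, 0.25 and -0.074 in sham. The replicate block gave 12 called genes for Ezh2 ECKO and 9 for Hdac2 against Ezh2 ECKO. Under the block the adjusted p of Gstm1, Gstp1, Sult1a1 and Slc9a3r2 in Ezh2 ECKO was 0.0713, 0.0765, 0.0558 and 0.0558, and without the 2 libraries of highest background 0.0327, 0.0264, 0.00953 and 0.0236.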
